A study of Mus musculus with 18 samples.

Results

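Ndst2 and Mcpt2 are a pair of genes best known from mast cells, and their transcripts were followed here in murine erythroleukemia (MEL) cells treated with hexamethylene bisacetamide (HMBA). They are 2 of the 5974 gene symbols that the platform annotation gives to probes with a single symbol, with 1 probe each. Both were chosen by their measured values, as genes with very low ratios late in the treatment, so their values are given as a description and carry no test. MEL cells are an established mouse line derived from leukemic red cell precursors, and HMBA is a small polar compound that makes them take up the erythroid programme. Each of 18 two-colour arrays was hybridised with 2 RNA samples. On 13 arrays the first channel held RNA from cells on day 1, 2, 3, 4, 5 or 6 of HMBA and the second channel held RNA from uninduced cells, with uninduced RNA in both channels on day 0. Series A had 1 such array for every day, and series B had 1 for days 0, 2, 3, 4, 5 and 6. The remaining 5 arrays belong to series B, are titled SD and cover days 0, 2, 3, 5 and 6. On those of days 2, 3, 5 and 6 the channels of induced and uninduced RNA were exchanged. All groups share the same cell line, while the subclone, the HMBA dose and the number of cultures are not given in the sources used here.

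Mast cells store proteases in granules, bound to a heavily sulfated sugar chain, heparin, which hangs on the core protein serglycin. Ndst2 encodes an enzyme of the Golgi that removes acetyl groups from glucosamine in the growing heparan sulfate chain and puts sulfate in their place, the step on which later sulfations depend. In mice, mast cells of connective tissue need Ndst2 to make heparin and to store their granule proteases. Mcpt2 encodes mouse mast cell protease 2, a serine protease related to the chymases and found in the granules of mucosal mast cells. Erythroid and mast cells share transcription factors, among them Gata1, Gata2 and Tal1, and both lineages use the receptor Kit.

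Both genes lie on chromosome 14 (GRCm38.p6 coordinates from the RefSeq gene table). Ndst2 covers chr14:20723730-20734570. Mcpt2 covers chr14:56021584-56044635, an interval that also spans Mcpt9, and it belongs to a cluster of granule protease genes that starts with the chymase gene Cma1 at chr14:55941451-55944675. The distance between Ndst2 and Mcpt2 is 35.3 Mb, while the stretch from the start of Cma1 to the end of Mcpt2 is 103 kb. Promoter windows of RefSeq, running from 250 bases before to 50 bases after the start of a gene, matched Ndst2 and Cma1, which is shown as the neighbour of Mcpt2 with low late ratios. Mcpt1 and Mcpt4, also beside Mcpt2, matched as well and are not shown, since Cma1 was picked after its ratios had been seen. Mcpt2 and its neighbour Cma2 had no entry. Capitals mark the GC box GGGCGG in the window of Ndst2 (chr14:20734513-20734812, minus strand) and the GATA motif (the letters GATA with A or T before them and A or G after them) in the window of Cma1 (chr14:55944626-55944925, minus strand), each searched on both strands.
Ndst2: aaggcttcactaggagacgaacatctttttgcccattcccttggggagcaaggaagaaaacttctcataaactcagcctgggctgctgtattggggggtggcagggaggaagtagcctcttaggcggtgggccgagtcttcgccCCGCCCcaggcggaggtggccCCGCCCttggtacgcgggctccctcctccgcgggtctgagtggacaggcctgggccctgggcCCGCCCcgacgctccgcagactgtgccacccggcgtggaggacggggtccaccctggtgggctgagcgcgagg
Cma1: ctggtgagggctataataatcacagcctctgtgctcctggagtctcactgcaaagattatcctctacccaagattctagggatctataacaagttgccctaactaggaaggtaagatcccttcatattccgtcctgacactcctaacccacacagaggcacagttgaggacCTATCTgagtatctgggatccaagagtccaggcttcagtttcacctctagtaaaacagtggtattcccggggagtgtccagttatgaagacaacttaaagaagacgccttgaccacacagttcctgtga
The window of Ndst2 held 3 GC boxes, beginning between 23 and 106 bases before the start, and 0 GATA motifs. That of Cma1 held 1 GATA motif, beginning 79 bases before the start, and 0 GC boxes. Among the 32851 promoter windows of the table, 35.7% held a GC box and 29.8% a GATA motif. The Ndst2 window had a GC content of 66.7% and the Cma1 window of 47.0%, against a median of 52.7% over all windows.

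Values are log2 ratios as deposited, centred on the median of each array, and the likely direction is induced over uninduced RNA, so a negative ratio stands for less transcript in the induced cells. That direction rests on the labels, which name the first channel as the induced one, and on textbook knowledge of globin induction: the alpha-globin probe Hba-ps3 was at 5.02 on average over days 4, 5 and 6 and at 0.59 on day 0. On the SD arrays as deposited that probe was at -4.25, 0.94, -2.78 and -4.20 on days 2, 3, 5 and 6 and at 1.73 on day 0, so on day 3 it did not change sign between the B and SD arrays, while on the other 3 days it did. Of the 6868 probes, 2008 to 4945 could be read on any of the 13 arrays outside the SD set. A ratio holds no level, so whether Ndst2 or Mcpt2 was abundant in uninduced MEL cells cannot be read from it, and in such a mixture fewer expressing cells and less RNA per cell cannot be told apart. Nothing in the labels says that arrays came from separate cultures, so the spread between arrays may be technical.

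Ndst2 (probe M001437_01) was near the array median at the start and far below it from day 3 on. It was measured on 15 of 18 arrays, 11 of them outside the SD set. On day 0 the ratios were -0.12 in series A and -1.01 in series B. Day 1, measured in series A alone, read -0.59. On day 2 the 2 series lay far apart, at 1.09 in series A and -3.10 in series B. The array of day 3 in series A read -3.92. On day 4 the values were -4.25 and -4.29 in series A and B, on day 5 they were -4.12 and -3.03, and on day 6 the array of series A read -3.42. Thus every array from day 3 on was below every array of days 0 and 1, and within day 4 the series differed by less than on any other day with 2 values.

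By day, the mean ratio of Ndst2 was -0.57 ± 0.63 before HMBA (SD, n = 2) and -0.59 after 1 day (n = 1). Day 2 gave -1.01 ± 2.96 (n = 2) and day 3 gave -3.92 (n = 1). The means of days 4, 5 and 6 were -4.27 ± 0.03 (n = 2), -3.58 ± 0.77 (n = 2) and -3.42 (n = 1). Ordered from the lowest mean, the days ran 4, 3, 5, 6, 2, 1 and 0. The spread of 2 arrays within a day, pooled over days, was 1.56. Only the gap between day 6 and day 2, at 2.41, was larger than that spread, and the other neighbours in the order differed by at most 0.42. Days 3, 4, 5 and 6 were therefore not separated from one another by their spread.

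Over days 4, 5 and 6, the 5 arrays with a value for Ndst2 ran from -4.29 to -3.03 with a median of -4.12, and the 2 arrays of day 0 read -0.12 and -1.01. The groups did not overlap on these arrays, but with the sign turned the SD array of day 5, at -0.80, lies above the day 0 array of series B. The late mean, taken over the 3 day means, was -3.76, against -0.57 on day 0, a difference of -3.19 (SE 0.99) or 9.11-fold lower in the induced cells. Of 2615 probes with such a late difference, that of Ndst2 ranked 2 from the lowest. Within series A the 3 late arrays were below day 0 of that series by -4.12 to -3.29 (mean -3.81), and within series B the 2 late arrays differed from their own day 0 by -3.28 and -2.02 (mean -2.65). The sign was therefore negative in each series, each set against a single day 0 array, but Ndst2 was chosen for these values.

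Mcpt2 (probe M001585_01) had the lowest late mean of all 2956 probes with a value on each of days 4, 5 and 6, and Ndst2 ranked 3 among them. It was measured on 14 of 18 arrays, 10 of them other than SD, which is under the minimum of 11 for entering the fit across probes, so its values come from a fit without that minimum. Day 0 was measured in series A, at -1.04, and day 1 in series A, at 0.69. Day 2 was measured in series B, at -2.66, and day 3 in series A, at -5.12. Values in series A and B were -3.26 and -5.95 on day 4, -5.93 and -4.72 on day 5, and -2.16 and -3.07 on day 6. Every array from day 2 on was thus below the arrays of days 0 and 1, and both arrays of day 6 were above all arrays of days 3, 4 and 5.

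Days 0, 1, 2 and 3 had n = 1 each for Mcpt2, so the values above are their means. Those of days 4, 5 and 6 were -4.61 ± 1.91, -5.32 ± 0.86 and -2.62 ± 0.64 (SD, n = 2 each). From the lowest mean the days ran 5, 3, 4, 2, 6, 0 and 1. The pooled spread within a day was 1.26. Days 5, 3 and 4 followed each other by at most 0.51 and days 2 and 6 by 0.04, while the gaps between day 4 and day 2 (1.95), day 6 and day 0 (1.57) and day 0 and day 1 (1.73) were larger than that spread. Days 3, 4 and 5 were thus the lowest for Mcpt2, whereas for Ndst2 day 6 was not set apart from them.

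Late arrays of Mcpt2 ran from -5.95 to -2.16 with a median of -3.99 (n = 6), and the day 0 array of series A read -1.04. All 6 were lower than it. However, the SD array of day 0, which also held uninduced RNA in both channels, read -3.33, inside the late range, so the groups overlap once it is counted. The late mean was -4.18, against -1.04 on day 0, a difference of -3.14 (SE 1.17) or 8.81-fold lower. That value was -5.22 and -1.59 when SD arrays were averaged with series B, turned and as deposited, and -2.17 with quantile normalization. Turning took in the SD array of day 0 as well, although it held uninduced RNA in both channels, so -5.22 is no bound on the difference. Within series A the 3 late arrays differed from their own day 0 by -4.89 to -1.12, with a mean of -2.74. That difference ranked 3 from the lowest of 2615.

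**Figure D1:**
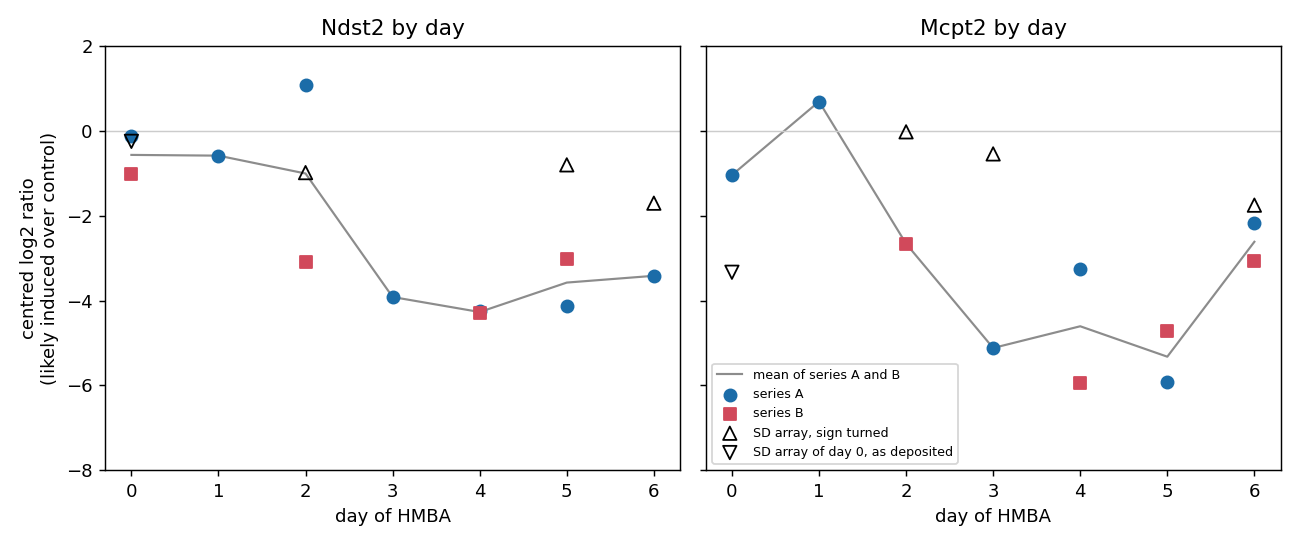
Centred log2 ratio (likely induced over control) of Ndst2 and Mcpt2 on each array by day of HMBA, with filled points for series A and B, a line through their day means and open triangles for the SD arrays (sign turned on days 2, 5 and 6 for Ndst2 and on days 2, 3 and 6 for Mcpt2, as deposited on day 0). Filled points of both genes sit below -2 from day 3 on, and the open triangles of days 2 to 6 lie between -1.75 and -0.02.

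Every late array was below every day 0 array for 159 of the 2615 probes with a late difference, or 6.08%, and Ndst2 and Mcpt2 were 2 of these. The limma fit on the 13 arrays called 0 of 1211 probes late at an adjusted p under 0.05, or 0%, with 28 at an unadjusted p under 0.05. Since both genes were chosen on this contrast, nothing is read from these shares. All 2615 probes had a median late difference of 0.16, with 1061 lower and 1554 higher. Without centring that median was 0.48, with 677 lower and 1938 higher, and Ndst2 was at -2.86 and Mcpt2 at -2.71.

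**Figure D2:**
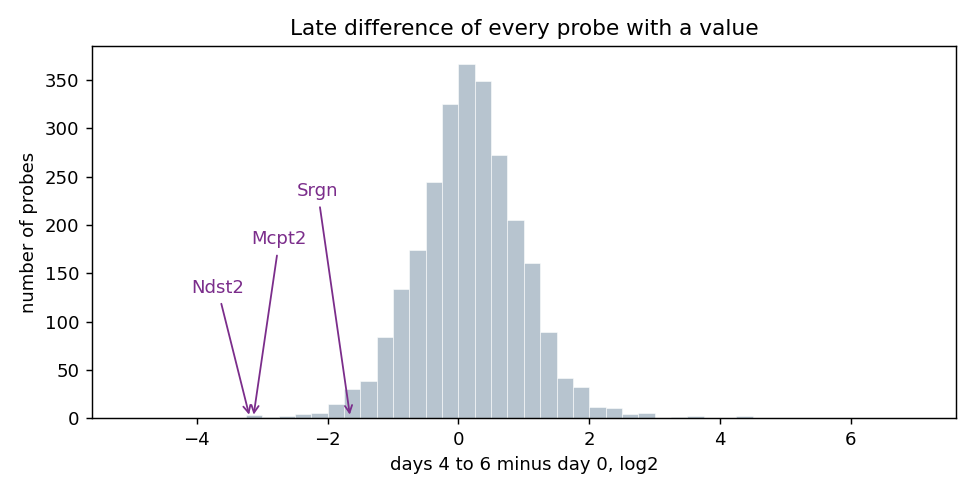
Number of probes by late difference (mean of days 4, 5 and 6 minus day 0, log2, in bins of 0.25), over all 2615 probes with such a value, with arrows at Ndst2, Mcpt2 and Srgn. Ndst2 at -3.19 and Mcpt2 at -3.14 sit in the far lower tail, and Srgn at -1.65 lies nearer to the bulk of the probes.

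The early days were set against the late ones as well. On days 1 and 2, Ndst2 read -0.59, 1.09 and -3.10, and its late minus early difference was -2.96. That value depended on the day 2 arrays: it was -1.91 without series A on day 2 and -4.01 without series B on day 2. Early values of Mcpt2 were 0.69 and -2.66, and its late minus early difference was -3.20. Late and early arrays of Mcpt2 overlapped, since day 2 of series B lay below day 6 of series A, and those of Ndst2 overlapped as well, with day 2 of series B below day 5 of series B. Relative to day 0, Ndst2 differed by -0.02, -0.44, -3.35, -3.70, -3.01 and -2.85 on days 1 to 6, and Mcpt2 by 1.73, -1.62, -4.08, -3.56, -4.28 and -1.57. On day 6, therefore, Mcpt2 was closer to its day 0 ratio than on days 3, 4 and 5, by more than its spread within a day.

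The SD arrays give these genes a further reading in which induced and uninduced RNA had changed places. As deposited, Ndst2 was at 0.99, 0.80 and 1.71 on the SD arrays of days 2, 5 and 6, and at -0.25 on that of day 0. Mcpt2 was at 0.02, 0.54 and 1.75 on those of days 2, 3 and 6, and at -3.33 on that of day 0. All 6 induced readings were above the array median, that of Mcpt2 on day 2 by only 0.02. The series B arrays with a value on the same days lay on the opposite side. Ndst2 had no series B value on day 6, nor had Mcpt2 on day 3, where Hba-ps3 kept its sign between the B and SD arrays. On day 2, Ndst2 read -3.10 in series B and 0.99 on the SD array, and on day 5 it read -3.03 and 0.80. For Mcpt2 the series B and SD values were -2.66 and 0.02 on day 2 and -3.07 and 1.75 on day 6. In the difference between the 2 arrays, a bias of the probe toward one channel cancels only if the SD values were not turned to match series B. If they were turned to match, the effect of HMBA cancels instead. That difference divided by 2 was -2.04 and -1.92 for Ndst2 on days 2 and 5. For Mcpt2 it was -1.34 and -2.41 on days 2 and 6. Relative to day 0, the same days read -0.44 and -3.01 for Ndst2 and -1.62 and -1.57 for Mcpt2 on the 13 arrays.

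Opposite signs on the B and SD arrays were seen for 27.6% of 2292 probes on day 2, 40.9% of 1311 on day 3, 35.5% of 1874 on day 5 and 28.4% of 1609 on day 6. A value of -2 or lower for that difference divided by 2 was seen for 0.524%, 3.66%, 0.961% and 0.435% of probes on days 2, 3, 5 and 6. Ndst2 was among them on day 2 but not on day 5, and Mcpt2 on day 6 but not on day 2. Both genes were chosen by their measured values, so nothing is read from these shares. The high values on the SD arrays were minus the log2 of a ratio with 3 decimals, which points to a change of sign made before the values were deposited, and what the authors did there is not given in the sources used here. Read with the sign turned, Ndst2 was at -0.99, -0.80 and -1.71 and Mcpt2 at -0.02, -0.54 and -1.75, all nearer to 0 than the series A and B arrays of days 3 to 6. Set against the SD array of day 0 instead, the values as deposited were higher by 1.23, 1.05 and 1.95 for Ndst2 and by 3.36, 3.88 and 5.09 for Mcpt2, so the size of the difference on these arrays depended on what it was set against. Whether the B and SD arrays shared RNA extracts is not given in the labels.

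**Figure D3:**
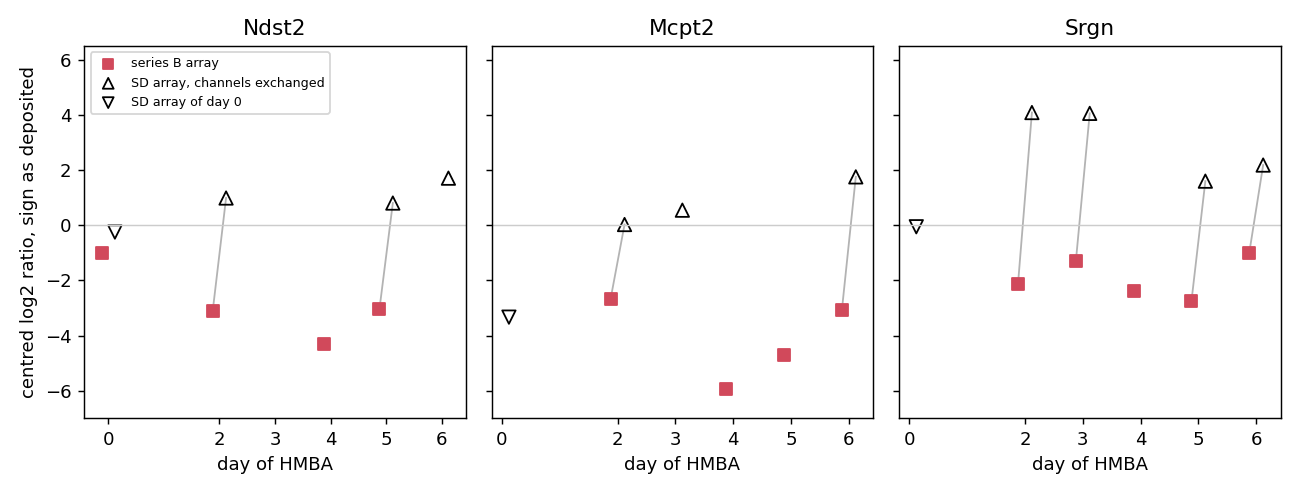
Centred log2 ratio with the sign as deposited (y axis) by day of HMBA (x axis) for Ndst2, Mcpt2 and Srgn on the arrays of series B (filled squares) and on the SD arrays (open triangles, pointing down on day 0, where no induced RNA was present). Grey lines join the arrays of 1 day, and each of them runs from a negative B value to an SD value above 0.

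Across the 9 arrays other than SD that measured both genes, Ndst2 and Mcpt2 had a Pearson correlation of 0.82, and Mcpt2 was the lower of the 2 on 5 of the 9. The arrays share their uninduced reference condition and their centring, and the figure is a description of these arrays. Among 846 probes that shared at least 10 of these arrays with Ndst2, the most alike included Myb (r = 0.88, 11 arrays), a transcription factor of dividing progenitors, and the selenoprotein gene Selenow (0.83), the aldehyde reductase gene Akr1a1 (0.77) and Srgn (0.72), each over 10 arrays. For Mcpt2, 489 probes could be compared. The most alike were Dbf4 (r = 0.87), which activates the origin kinase Cdc7, Selenow (0.87), Srgn (0.85), the ribosomal protein gene Rpl28 (0.82) and Ldb1 (0.82), an adaptor of Gata1 complexes, each over 10 arrays. Selenow and Srgn stood in both sets of 5. Late differences from day 0 were -2.49 for Myb, -1.43 for Selenow, -1.65 for Srgn, -0.80 for Dbf4 and -0.46 for Ldb1, all smaller in size than those of Ndst2 and Mcpt2.

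Srgn, which encodes serglycin, the core protein that carries heparin in mast cells and chondroitin sulfate in other blood cells, lies on chromosome 10 (chr10:62493833-62527445) and was measured on 17 arrays. In series A it read 0.11, 1.29, 0.69, -3.57, 0.06, -2.21 and -1.0 from day 0 to day 6. In series B it read -2.12, -1.31, -2.39, -2.75 and -1.0 on days 2, 3, 4, 5 and 6. Late arrays thus ran from -2.75 to 0.06 with a median of -1.61, and all 6 lay below the day 0 array at 0.11, that of day 4 in series A by the least. Such a separation was seen for 6.08% of the 2615 probes with a late difference. The late mean of Srgn was -1.55, a difference of -1.65 (SE 1.22), 3.14-fold lower, which did not pass the test in limma (adjusted p = 0.9999). On the SD arrays as deposited Srgn was at 4.08, 4.05, 1.60 and 2.18 on days 2, 3, 5 and 6 and at -0.06 on day 0, the last of these below the day 4 array of series A. The B minus SD difference divided by 2 was -3.10, -2.68, -2.17 and -1.59 on these days, negative on each of the 4. On day 3, however, Hba-ps3 kept its sign between the B and SD arrays. A fit over all 18 arrays turned the sign of the day effects on the SD arrays and gave each probe a term for channel bias. It took the SD values to have been deposited with the channels exchanged, and day 0 had no effect of its own. Srgn had a late value of -1.89 there (SE 0.43, adjusted p = 0.0281 in limma). In that fit, which counts B and SD arrays as separate, 16 of 1220 probes were called, or 1.31%. With the SD arrays, that of day 0 included, turned and averaged with series B, limma called 0 of 1828, with 81 at an unadjusted p under 0.05. The call of Srgn was therefore not kept there.

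Of the mast cell protease genes around Mcpt2, Cma1 and Cma2 were measured on 10 and 13 of the 18 arrays. Cma1 encodes a chymase, a chymotrypsin-like protease of connective tissue mast cells. It read 0.40 on day 0, -0.07 on day 1, 2.12 and 0.08 on day 2, -3.29 and -1.14 on day 4 and -4.40 and -1.52 on day 5, with series A before B where both were measured. All 4 arrays of days 4 and 5 lay below the other 4, and their mean of -2.59 was 7.93-fold lower than day 0 at 0.40, a difference of -2.99. That day 0 array was of series A. In series B days 4 and 5 read -1.14 and -1.52, and its only day 0 reading was -0.70, on the SD array. Cma1 was picked after its values were seen, and the share of probes with such a separation was not computed. No day 6 array other than SD gave a value for Cma1, so it has no late difference over all 3 days. Cma2, annotated as a further chymase, read -0.06 and 1.23 on day 0, 0.67 and 0.46 on day 2, -6.33 on day 3 and -1.17, -2.05 and -1.65 on days 4, 5 and 6, with 1 array for each day from day 3 on. Its late difference from day 0 was -2.21 (SE 0.86), 4.63-fold lower, and the late arrays did not overlap with those of day 0. Every late array was below every day 0 array for 6.08% of the 2615 probes with a late difference, so nothing is read from that. In the 18-array fit, where day 0 had no effect of its own, the late value of Cma2 was -1.33. The SD array of day 0 read -0.98 for Cma2 and -0.70 for Cma1. As deposited, Cma1 read 0.35 on the SD array of day 6, its only other SD value. Cma2 read -0.13, 0.19, 1.17 and 1.79 on the SD arrays of days 2, 3, 5 and 6 as deposited. Its B minus SD difference divided by 2 was 0.30 on day 2 and -1.61 on day 5.

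**Figure D4:**
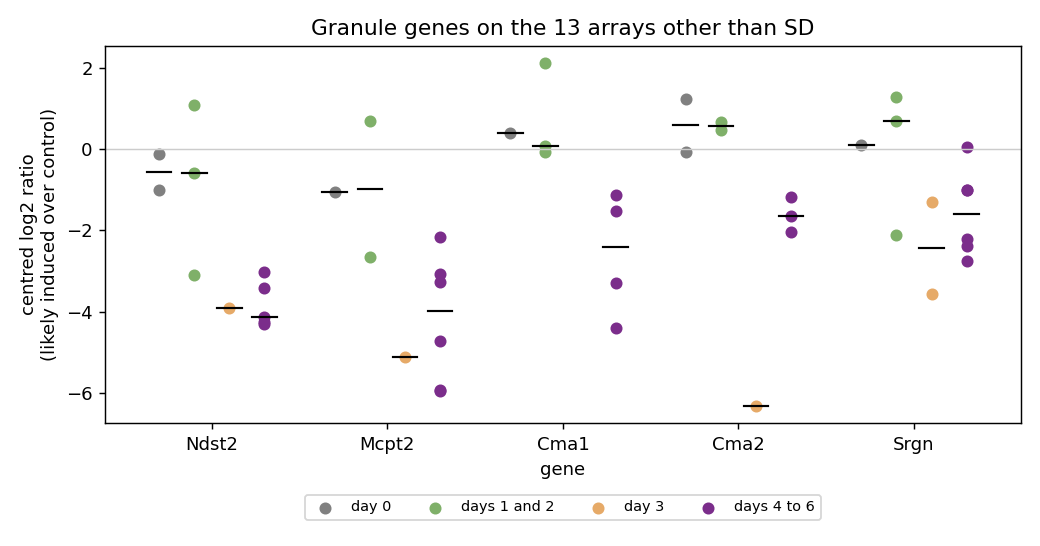
Centred log2 ratio (likely induced over control) of Ndst2, Mcpt2, Cma1, Cma2 and Srgn on the 13 arrays other than SD, 1 point for each array, grouped as day 0, days 1 and 2, day 3 and days 4 to 6, with a bar at the median. For each gene the bar of days 4 to 6 lies below that of day 0, with late medians of -4.12 for Ndst2 and -3.99 for Mcpt2.

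The window of 500 kb from the start of Cma1 holds 16 coding genes, of which 12 have a probe. Those other than Mcpt2, Cma1 and Cma2 were measured on 1 to 4 of the 13 arrays each, and their values were picked out after they had been seen. Mcpt9, inside the interval of Mcpt2, read -1.18, 0.42, -1.39 and -1.97 on days 1, 2, 4 and 6 of series A. Gzmb, the gene of the cytotoxic protease granzyme B, read -1.15 on day 0, 1.26 on day 1 and -6.06 on day 4 of series A, and 4.63 and 2.53 on the SD arrays of days 3 and 5 as deposited. Gzmd read -0.28 on day 0, 1.01 on day 2 and -3.53 on day 3 of series A. On the SD arrays of days 2 and 5 as deposited it read 4.91 and 1.00. Gzmg read 0.24 on day 1, 0.61 and -2.90 on day 2 and -2.98 on day 6, but -0.85 on the SD array of day 5 as deposited. Mcpt1 read 0.21 early and -0.05 late, on 1 array each, and Mcpt4, Mcpt8, Ctsg and Gzmc had no late value. Low ratios on single later arrays were therefore seen for Gzmb, Gzmd and Gzmg as well, while Mcpt1 lay near the array median. Mcpt-ps1, not among these genes, was measured on 8 of the 13 arrays. It ran from -0.82 to 1.62 late (n = 3) and read 0.50 on day 0. The tryptase gene Tpsab1, also outside the window, read 0.50 and 0.73 late and 0.58 on day 0. Probe sequences were not used here, and binding of related protease transcripts to the Mcpt2 probe was not tested.

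Among the other genes of granule proteases and of mast cells, few could be followed to the late days, and 0 passed the test in any list in the 13-array fit. That fit called 0 of 1211 probes, and Hba-ps3 did not pass either (adjusted p = 0.1873 in limma), so nothing is read from these counts. Of 11 measured granule protease probes other than Mcpt2, 3 had a late difference, 2 lower and 1 higher, with a median of -0.02: the tryptase genes Tpsb2 (-0.02) and Tpsg1 (0.29), and Cma2. That split was 1 lower and 2 higher without centring, and 3 lower with quantile normalization. The carboxypeptidase gene Cpa3, a defining mast cell gene, had values on 2 arrays, 0.30 early and 0.18 on day 0. Over all 18 measured probes of the mast cell marker list, 4 had a late difference, 2 lower and 2 higher, with a median of 0.14. Kit, the stem cell factor receptor, was at 0.66 relative to day 0 (SE 1.13), with late arrays between 0.49 and 2.37 and a day 0 array at 0.52. Hdc, the histamine-forming enzyme, was between 0.20 and 0.97 on 3 late arrays and at 1.19 and 2.29 on day 0. Mitf, a transcription factor that mast cells need, had 3 late values between -0.16 and 2.97 and a day 0 value of 0.92. The alpha chain of the IgE receptor, encoded by Fcer1a, had a late value of -1.11 on 1 array, and its beta chain, Ms4a2, had 1 early value of -1.55. Its gamma chain, Fcer1g, was between -0.03 and 1.75 on 3 late arrays with a median of 0.85, and at -0.53 on day 0. The part of mast-like cells in the values of Ndst2 and Mcpt2 was not tested.

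Receptors and signalling genes of mast cells had a late difference for 8 probes, 7 higher and 1 lower, with a median of 0.27 (5 higher and 3 lower with quantile normalization). Over all 2615 probes 1554 were higher, with a median of 0.16. Csf2rb, the common beta chain of cytokine receptors, was at 1.32 (SE 1.24) and the related Csf2rb2 at 3.68 (SE 1.28), each against 1 day 0 array, while Stat5a was at 0.25 and Plcg1 at 0.06. The list of erythroid and mast cell transcription factors gave 12 late differences, 6 lower and 6 higher, with a median of 0.15. That median was 0.55 with quantile normalization (5 lower and 7 higher) and 0.71 with equal spread of the arrays (4 lower and 8 higher), where all probes had medians of 0.14 and 0.20. Myb was at -2.49 (SE 0.88), with late and day 0 means of -2.55 and -0.07. Gata2, a factor of progenitors and mast cells, was at 0.30 (SE 0.80) with means of -1.29 late and -1.59 on day 0, and Gata1, the erythroid factor, was at 0.67 (SE 0.85). Zfpm1, a partner of Gata1, was at 0.43, Ldb1 at -0.46 and the repressor gene Gfi1b at -0.37. On the 13 arrays limma gave an adjusted p = 0.9999 for all tested members of these lists that are named here. That fit called 0 of 1211 probes. Myb was among the 16 calls of the 18-array fit, a call not kept with the SD arrays turned and averaged with series B. As deposited, Myb read 1.00, -0.72, 1.51 and 0.05 on the SD arrays of days 2, 3, 5 and 6.

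The pathway to which Ndst2 belongs was thinly covered, and Ndst1, Ndst3 and Ndst4 have no probe on the array. Of 6 measured probes for other enzymes of sulfation and epimerization, 3 had a late difference, with a median of -0.32 (-0.02 without centring, where 1 of the 3 was above 0). Hs6st1, a 6-O-sulfotransferase, was at -0.0034 (SE 0.79), Hs2st1, a 2-O-sulfotransferase, at -0.32 (SE 0.74), and Hs3st3b1, a 3-O-sulfotransferase, at -0.39 (SE 1.03). Late arrays of Hs6st1 ran from -0.81 to 1.07 with a median of -0.41, and its day 0 arrays read -0.75 and 0.64, so the groups overlapped. Extl2, of the chain polymerizing family, was at 0.19 (-0.36 with quantile normalization), and Papss2, which makes the sulfate donor, at -0.84 (SE 1.08). Ext1, a chain polymerase, was below the array median late (-2.85 to -0.72, n = 3), early (-1.53) and on day 0 (-0.51). Among breakdown enzymes, Idua was at 1.10 (SE 0.84) and Glb1 at -0.61 (SE 1.27). Core proteins of proteoglycans had 6 late differences, 3 lower and 3 higher with a median of 0.05, in which Srgn was the lowest, Gpc1 was at -0.74 and Vcan and Sdc1 were at 0.73 and 0.70. Chst7, a chondroitin 6-sulfotransferase, was at 0.35. Of the tested probes on these lists of sugar chains and core proteins, 0 passed the threshold in limma on the 13 arrays and 0 had an unadjusted p under 0.05. That limma fit called 0 of all 1211 probes, with 28 at an unadjusted p under 0.05.

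In a list of cathepsins and protease inhibitors, 6 of 6 late differences were above 0 (5 of 6 with quantile normalization), with a median of 0.56. Over all probes 1554 of 2615 were above 0. Of the 5 tested in the 13-array fit, which called 0 of 1211 probes, 0 passed, with 1 at an unadjusted p under 0.05 in limma. Ctsl, a lysosomal cysteine protease, was at 2.34 (SE 1.09, adjusted p = 0.9999 in limma), with means of 0.29 late and -2.05 on day 0. Its late arrays ran from -2.60 to 2.32 and the day 0 arrays read -2.53 and -1.57, so the groups overlapped. In the 18-array fit Ctsl was at 2.22 (adjusted p = 0.0314 in limma), a call not kept with the SD arrays turned and averaged with series B. Ctsd, a lysosomal aspartic protease, was at 1.27, the cysteine protease inhibitor Cst3 at 0.46 and Cstb at 0.06. Of the other granule serine proteases, Prtn3 of neutrophils was the single one with a late difference, at -0.64 (SE 1.46). Other marker lists gave the following medians: erythroid genes 1.12 (9 of 11 higher), granulocyte genes -0.46 (3 of 4 lower) and megakaryocyte genes 0.25 (3 of 4 higher). The median of all probes was 0.16 (1554 of 2615 higher). No macrophage marker, of 11 measured, had a late difference, and the lymphocyte marker Ighm was at 0.88. In the erythroid list Hba-ps3 was at 4.43 and Hbb-b2 at 2.34, and since globin also served to set the likely direction, that list is no independent evidence of it.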

How the data were processed

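Log2 ratios of the series' value table were used, as the authors deposited them for 18 two-colour arrays. Scale was recognised from the values: on the 13 arrays outside the SD set, low values equal the log2 of ratios rounded to 3 decimals, and on the SD arrays high values equal minus such a log2. The numerator channel, the dyes, the image analysis, the background correction and the normalization are not given in the sources used here, and no spot intensities were used, so signal over background and the precision of a single ratio are not known. The number of arrays limits the precision. Array medians ran from -0.09 to 0.63 on the 13 arrays and from -0.15 to 0.70 on the SD arrays, and each array's median was subtracted from its values. The lowest correlation between any of the 13 arrays was -0.08.

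Of 6868 probes, 6108 had 1 gene symbol in the platform annotation, 41 had several and 719 had none. Probes were fitted with limma 3.58.1 in R 4.3.3, with the 7 days as groups over the 13 arrays, moderated variances (prior degrees of freedom 10.3, prior SD 0.97 log2) and Benjamini-Hochberg adjustment at 0.05. A probe was tested with values on at least 11 of the 13 arrays and on at least 1 day 0 array. Late is the mean of days 4, 5 and 6, and early that of days 1 and 2. Day 1, with 1 array, was taken to vary as the other groups do. Tables and windows were handled in Python 3.11.15 with pandas 2.3.3, and the fit was tested on simulated data. No column of another series was present.

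Ndst2 and Mcpt2 and the gene lists were chosen with earlier results of these data known. Up to 4 genes of each list were named, those measured on most arrays with a late difference, with Kit, Gata1, Gata2, Mitf, Srgn and Cpa3 always included. Hdc, Fcer1a, Fcer1g, Ms4a2, Ext1, Mcpt-ps1, Tpsab1, the protease neighbours of Mcpt2 and Cma1 over days 4 and 5 were picked after their values were seen. The most alike probes were the 5 with the highest Pearson correlation, of which 1 for Ndst2 is not reported here. Alternatives were other scalings, other uses of the SD arrays, the series letter as a block, other filters, and leaving out each array. Where SD arrays were turned and averaged with series B, that of day 0 was turned too, although it held no induced RNA.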

Additional observations from a re-analysis of the deposited data

Results flagged for a closer look

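Day 2 of Ndst2 went opposite ways in the 2 series: it differed from day 0 of the same series by 1.21 in series A and by -2.09 in series B, with 1 array in each. The same was seen for Cma2, at 0.72 in series A and -0.77 in series B. The difference between the series was not tested for either gene.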

How the results depend on the processing

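Late minus day 0 kept its negative sign for Ndst2 and Mcpt2 under every alternative that gave a value. For Ndst2 the other settings ran from -3.76 (against a ratio of 0, without day 0) to -2.20 (SD arrays averaged in as deposited), with -3.36 under the series letter as a replicate block, and leaving out single arrays gave -3.63 (without day 0 of series B) to -2.74 (without day 0 of series A). For Mcpt2, averaging the SD arrays with series B moved it to -5.22 with their sign turned and to -1.59 as deposited. By construction the Mcpt2 day 0 value of series B then comes from the SD array alone, turned or not. Turning changed the sign of that array although it held uninduced RNA in both channels. The late difference of Mcpt2 under the other settings follows. It was -4.18 against a ratio of 0, -2.17 with quantile normalization, -2.35 with equal spread of the arrays and -2.74 with the block, and leaving out single arrays gave -3.59 to -2.69. Late minus early was -2.88 for Ndst2 and -3.20 for Mcpt2 with the block, with ranges without single arrays of -4.01 to -1.91 and -3.65 to -2.75. Late calls over all probes were 16 in the 18-array fit, 14 when the SD array of day 3 was left out of it (chosen after seeing the data), 1 with the block (Hba-ps3) and 0 to 1 without single arrays, against 0; late minus early called 0 of 1050, with 69 at an unadjusted p under 0.05 in limma, and 0 in every other setting. Cma2, added after seeing the data, was -1.33 and -1.50 in those 18-array fits and -0.55 with SD arrays averaged in as deposited. Nothing in the labels says that a series letter marks a shared culture. Correlations of deviations between days ran from -0.0098 to 0.42 over 15 pairs of days, with a median of 0.27. By these, 6 of 6 arrays of series A were closer to their own letter, but not every pair was positive. What the arrays of a letter share was not tested. Not computable were Mcpt2 late minus day 0 without its day 0 array, Ndst2 late without day 6 of series A, and late minus early of both genes without day 1 and of Mcpt2 without day 2 of series B.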
